A study of Mus musculus with 3 samples.

Results

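PS was set against CAPS gene by gene in E14 mouse embryonic stem cells (mESCs), over every autosomal protein-coding gene of the GENCODE M1 annotation on mm9. The counts of modified and unmodified reads at CpG cytosines were pooled over the exons and, separately, over the introns of each gene, and a gene part was kept when both libraries had 200 or more reads in it. Of 21418 genes, 19086 had at least 1 such part, which gave 18316 exon parts of 20934 with a listed cytosine and 17114 intron parts of 18297. An exon part held all annotated exons of the gene, and an intron part held what was left of the gene span after the exons of every annotated gene were removed. A gene part was said to stand out when its PS level, modified reads over all reads, lay above 0.25% in a one-sided exact binomial test (Benjamini-Hochberg adjusted p under 0.05 over all gene parts) and was also 1% or more.

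Genomic DNA (gDNA) of E14 mESCs was taken through TAPSβ, CAPS and PS. E14 is an established line grown on gelatin with serum, LIF and the inhibitors PD0325901 and CHIR99021. There was 1 library per method and no replicate, so every test below compares reads of these libraries, and every interval covers counting error only. CAPS fragments were size-selected to a shorter range than those of PS and TAPSβ. The libraries hold DNA, not RNA, so the labelled cell type could not be checked against the expression of its markers.

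5-Methylcytosine (5mC) is oxidized by TET enzymes first to 5-hydroxymethylcytosine (5hmC), and then to 5-formylcytosine (5fC) and 5-carboxylcytosine (5caC), which TDG and base excision repair remove. TAPSβ reads 5mC as T, CAPS reads 5hmC as T, PS reads 5fC and 5caC as T, and the first 2 read 5fC and 5caC as T too. A T that is already in the DNA, as in a C-to-T difference from the reference or in a diverged further copy of the sequence, is read as T by all 3 methods, and only on the strand that carries the C.

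PS listed 38372215 autosomal CpG cytosines, some of them possibly without reads, with 375116986 base calls and a level of 0.240%. CAPS had 368690187 base calls at 3.15% and TAPSβ 499928217 at 57.4%. The median cytosine had 10 reads in PS, 10 in CAPS and 13 in TAPSβ. A single cytosine therefore had a wide interval, and the statements on genes rest on pooled reads.

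Most gene parts sat near the PS background. The median PS level was 0.185% over exon parts and 0.182% over intron parts, where the median CAPS level was 3.00% and 3.33%. Across all gene parts, 519 of 35430 (1.46%) stood out in PS. These were 244 exon parts (1.33% of those kept) and 275 intron parts (1.61%), and they belonged to 434 genes. With the cytosine of most modified PS reads left out of each part, 132 exon parts stood out, and with a smallest level of 2%, 148 exon parts and 165 intron parts. With a minimum of 500 reads 161 exon parts did. That minimum also takes parts out of the test, as the lower quartile of PS reads in the 244 was 455.5. The binomial test without the 1% limit called 732 (2.07%). The exon part nearest to the limit from above had 1.00% and the nearest one under it 0.997%, and for introns these values were 1.00% and 0.999%. Among the parts that stood out the median PS level was 2.40% in exons and 2.297% in introns.

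The exons with the highest PS levels included those of receptor genes and of a splicing factor gene. Exons of Vmn2r115, a vomeronasal receptor gene for pheromone sensing, had 51 modified of 301 PS reads, which is 16.9% (95% exact interval 12.9 to 21.7%), and a CAPS level of 18.4%. Exons of Klra9, a Ly49 receptor gene of natural killer cells, had 70 of 478 PS reads, or 14.6%, and 13.2% in CAPS. In both genes CAPS and PS differed by less than their counting error. Exons of Mrgpra4, a Mas-related receptor gene of sensory neurons, had 13.9% in PS and 17.7% in CAPS, and those of Vmn2r114 had 13.0% and 14.2%. The remaining exon parts of the 12 highest were Phf5a (14.4%), Dcpp2 (11.4%), Zfp772 (11.1%), Cd244 (10.4%), Gm13157 (10.1%), Itln1 (9.68%), Gm13242 (9.54%) and Nlrp4f (9.12%). Of these, Phf5a, which encodes a subunit of the SF3b splicing complex, and Zfp772 had introns that did not pass the binomial test, at 0.175% and 0.579%, the latter from 4 of 691 reads.

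Among introns, the highest level was that of Gm9765, a gene model on chromosome 1, with 166 of 784 PS reads (21.2%) and a CAPS level of 22.6%. Introns of its neighbour Itln1, which encodes the lectin intelectin, had 12.7% in PS and 14.4% in CAPS. Introns of Cd244, a SLAM-family receptor gene of natural killer cells that lies next to both, had 1938 of 12114 PS reads, or 16.0% (15.3 to 16.7%), and 17.0% in CAPS. All 3 genes lie within chromosome 1, from 173445364 to 173515449, and in all 3 the reads were dense. PS coverage was 52.3 reads per cytosine in Gm9765 introns, 21.4 in Itln1 introns and 40.9 in Cd244 introns, against a median of 10.2 over intron parts. CAPS and TAPSβ were dense there as well, with 41.7 and 59.9 reads per cytosine in Cd244 introns. Introns of Gm20516 (17.6% in PS, 19.6% in CAPS), Nlrp4f (12.1% and 11.7%), Klra5 (11.6% and 11.3%), Vmn2r88 (11.1% and 13.5%) and Klra1 (10.6% and 10.6%) completed the 8 highest.

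Gene lists are described by counts. Of the families whose copy number or sequence is known to vary between mouse strains, 15 of 69 exon parts (21.7%) and 22 of 70 intron parts (31.4%) stood out. Vomeronasal receptor genes had 12 of 56 exon parts (21.4%) and 23 of 115 intron parts (20%). Gene models with Gm or Rik names had 73 of 1980 exon parts (3.69%) and 109 of 1671 intron parts (6.52%). Olfactory receptor genes, a large family too, had 3 of 276 exon parts (1.09%) and 1 of 65 intron parts (1.54%), near the 1.33% and 1.61% of all parts. Zfp genes had 5 of 344 exon parts (1.45%) and 9 of 335 intron parts (2.69%). No part stood out among the genes of cytosine oxidation and repair (20 exon parts), glycolysis (14), ribosomal proteins (78) or the Hist1 histone cluster (44). These lists are too small to set such counts against the 1.33% and 1.61% of all parts. Exons of Tet1 and Tet2, which encode 5mC oxidases, had 0.158% and 0.154% in PS and 5.79% and 5.52% in CAPS. Exons of Tdg, the glycosylase that removes 5fC and 5caC, had 0.233% and 4.002%. In Pou5f1 and Sox2, core pluripotency factors, exon PS levels were 0.289% and 0.390%, with 1.12% and 0.674% in CAPS. Of the pluripotency list, Nanog and Dppa4 exons stood out, 2 of 19 (10.5%), and none of 16 intron parts. Of abundant housekeeping genes Prdx1, Ybx1 and Hspd1 exons stood out, 3 of 30 (10%), and none of 25 intron parts. Both are small counts beside the 1.33% of all exon parts and 1.61% of all intron parts. Prdx1 encodes a peroxidase, Ybx1 a nucleic-acid-binding protein and Hspd1 a mitochondrial chaperone, and their exons had 1.92%, 1.85% and 1.05% in PS and 4.10%, 5.87% and 2.66% in CAPS. Among Cyp genes, which encode cytochrome P450 enzymes, 1 of 95 exon parts (1.05%) and 3 of 93 intron parts (3.23%) stood out. The 3 were introns of Cyp3a41a (3.19% in PS, 3.73% in CAPS), Cyp3a41b (2.37% and 3.76%) and Cyp2d9 (2.07% and 5.19%). The olfactory receptor gene with the highest level was Olfr209 (6.32% and 5.18%), at 29.0 PS reads per cytosine. Among genes named Zfp, the one after Zfp772 was Zfp600 (6.76% and 11.04%). These counts describe the libraries and were not tested.

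Part of the genes that stood out lay in runs along the chromosomes. With genes joined when no more than 1 Mb apart, 22 runs of 5 or more genes held 203 of the 434 genes, and 112 genes stood alone. The share of genes that would fall in such runs without regard to PS was not computed. Some runs held few of the genes kept in their span, such as 7 of 80 on chromosome 7 from 49864896 to 52110788. The levels and coverage given for a run are those of its parts that stood out, which were chosen for a high PS level. The longest run, on chromosome 14 from 3030002 to 8428106, held 47 of the 56 genes kept in its span, nearly all of them Gm models, and its 53 parts that stood out had a pooled PS level of 2.69% and a CAPS level of 4.33%. A run on chromosome 4, from 145100662 to 147183895, held all 18 genes kept in it, among them Zfp600 and Zfp534. Its 27 parts that stood out had a pooled PS level of 4.89% and a CAPS level of 7.57%, and their median coverage was 19.1 reads in PS, 21.4 in CAPS and 30.8 in TAPSβ. The Ugt1a cluster on chromosome 1, whose genes encode glucuronidating enzymes, gave 11 of 12 genes with its neighbours, at a coverage of 20.8 reads in PS. A cytosine in overlapping genes counts in each of them, so the genes of a run need not be separate signals. In the natural killer receptor run on chromosome 6 (15 of 50 genes), coverage was near the usual, with 10.8 reads in PS. High coverage thus went with a part of the signal only. Over 2 times the median coverage was found in 44 of the 244 exon parts standing out in PS, 60 in CAPS and 52 in TAPSβ, against 0.127%, 0.172% and 0.138% of the other exon parts. For introns it was 35, 37 and 34 of 275, against 0.0831%, 0.0891% and 0.0831%. Whether extra copies caused the signal was not tested.

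The modified reads of a gene part were then traced to single cytosines. A cytosine was called raised when it had 5 or more PS reads, 3 or more of them modified, and a PS level of 20% or more. The median number of raised cytosines was 2 in exon parts standing out, and 24 of the 244 held none. The median share of modified PS reads on raised cytosines was 83.3% in these parts. In intron parts the median number was 4 and the median share 72.7%, and 9 of the 275 held none. The numbers ranged widely, as 57 of the exon parts and 127 of the intron parts held 5 or more, with up to 30 in exons and 193 in introns. Introns of Cd244 held 90, and their top cytosine had 2.84% of the modified reads. Raised cytosines were picked by their PS level, so these shares are a description. Among parts that did not stand out, 1.01% of exon parts and 9.18% of intron parts held a raised cytosine. A wider set, all cytosines with 5 or more PS reads and a level of 20% or more, was also left out, whatever their modified reads. Then 34 exon parts and 66 intron parts still stood out.

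In a smaller set of genes the PS signal was confined to exons. Of the 196 genes whose exons stood out and whose introns were kept, 85 had introns that stood out too, and 71 met the criteria for confinement: exons above introns by a two-sided Fisher's exact test (adjusted p under 0.05 over 16344 genes) and introns at background by the binomial test or under 0.5%. The remaining 40 met neither. Confined genes were 0.434% of the 16344 genes with both parts. Their number fell to 43 when the cytosine with the most modified PS reads was left out of each part, to 28 with a smallest level of 2%, and to 2 without cytosines that reached 20% in PS. Exons were above introns in 128 genes (0.783%) and introns above exons in 55 (0.337%). The signal was confined to introns, by the same criteria with the parts exchanged, in 31 genes. Because exon and intron PS levels chose the 71 genes, their difference is given as a description. The median PS level in the 71 was 1.85% in exons (1.00 to 14.4%) and 0.195% in introns (0 to 0.863%). Of the 71, 41 had no other gene standing out within 1 Mb.

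**Figure D1:**
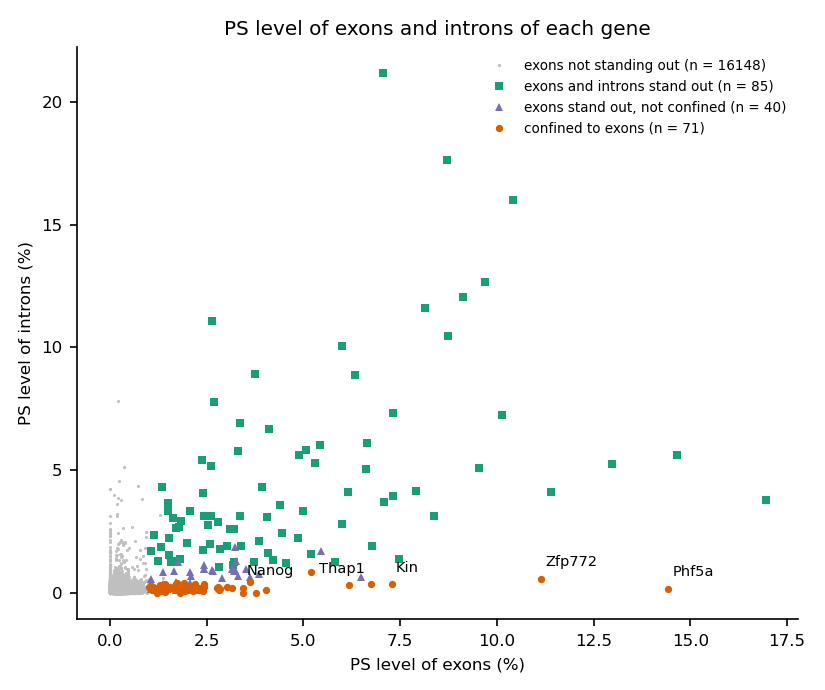
PS level of exons (x axis, %) against PS level of introns (y axis, %) for the 16344 genes with both parts kept, 1 point per gene. Genes whose introns stood out as well are scattered over the plane, while the 71 confined genes lie along the bottom with intron levels of at most 0.863%, up to Phf5a at 14.4% in exons.

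None of the 50 vomeronasal receptor genes, 27 olfactory receptor genes and 52 genes of strain-variable families with both parts kept was confined, counts too small to set against the 0.434% of all genes. Exons of Phf5a had 149 modified of 1033 PS reads, or 14.4% (12.3 to 16.7%), and its introns had 3 of 1716, or 0.175%. Its CAPS level was 17.2% in exons and 3.33% in introns, so CAPS was high in the same part. PS coverage was 25.8 reads per cytosine in its exons and 11.6 in its introns.

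Exons of Thap1, a zinc-finger transcription factor gene, had 170 of 2758 PS reads (6.16%) and its introns 6 of 1839 (0.326%), at a PS coverage of 24.8 and 9.10 reads. Of the 170 modified reads 96 fell on cytosines without a CAPS read, and over cytosines read in both libraries, a setting chosen after seeing the data, the exon level was 2.80%. Exons of Kin, which encodes a DNA- and RNA-binding protein, had 98 of 1345 PS reads (7.29%) and its introns 11 of 3011 (0.365%). Kin had the most raised cytosines of any confined gene, 13, all between 10013370 and 10014098 of chromosome 2. In CAPS its exons had 14.9% and its introns 3.63%, which is the largest CAPS level among confined genes after Phf5a. Exons of Kifc1, a minus-end-directed kinesin of the spindle, had 62 of 2220 PS reads (2.79%) with 10.1% in CAPS. Those of its relative Kifc5b had 48 of 2393 (2.01%) with 8.37% in CAPS. The coding sequences of Kifc1 and Kifc5b each matched another locus at 99.5% identity, so reads may be shared between near-identical genes and the values of both are uncertain.

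The other confined genes with the most raised cytosines were Zfp772 (12), Cdv3 (10), Ppp2r5a, which encodes a regulatory subunit of protein phosphatase 2A (10), Thrap3, a factor of transcription and splicing (9), and Aebp2, a cofactor of Polycomb repressive complex 2 (9). Zfp772 exons reached 11.1% in PS and 10.3% in CAPS, Cdv3 exons 2.41% and 4.09%, Ppp2r5a exons 2.08% and 4.07%, Thrap3 exons 1.70% and 6.84% and Aebp2 exons 1.40% and 4.85%. Nanog, a pluripotency factor gene, was confined as well. Its exons had 35 of 1022 PS reads (3.42%) and its introns 3 of 1328 (0.226%), with 7.37% and 1.39% in CAPS and a PS coverage of 17.6 and 10.9 reads.

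**Figure D2:**
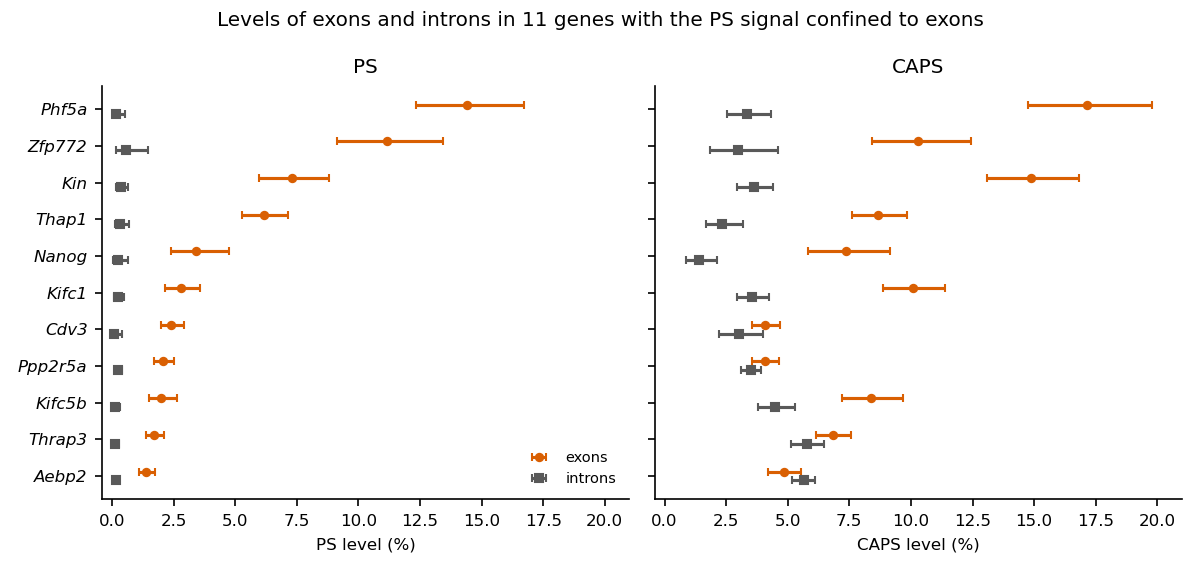
Levels of exons (circles) and introns (squares) in PS (left) and CAPS (right), in %, for the 10 confined genes with the most raised cytosines and Nanog. Bars are 95% exact binomial intervals, which cover counting error only. In PS the intron levels are all at or under 0.579%, and in CAPS the exons of Phf5a, Kin, Thap1, Nanog, Kifc1 and Kifc5b lie above their introns while those of Aebp2 lie at 4.85% against 5.64%.

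Stretches of coding sequence around raised cytosines of 2 confined genes are shown to make the pattern visible. Each is written 5′ to 3′ on the strand of the gene from NCBIM37 (mm9). A capital C is a raised cytosine on the gene's strand, and a capital G stands opposite a raised cytosine of the other strand. The stretches lie at chr2:10013546-10013645 on the plus strand in Kin and chr17:34021651-34021750 on the minus strand in Kifc1.
Kin: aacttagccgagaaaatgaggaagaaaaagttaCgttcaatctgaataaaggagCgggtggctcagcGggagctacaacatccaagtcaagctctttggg
Kifc1: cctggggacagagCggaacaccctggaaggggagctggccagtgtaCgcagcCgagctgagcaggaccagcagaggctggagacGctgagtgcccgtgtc

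The 3 raised cytosines of the Kin stretch had 13 of 40 modified reads in PS (32.5%) and 30 of 49 in CAPS (61.2%). In PS the cytosines opposite them had none. The 4 of the Kifc1 stretch had 17 of 43 in PS (39.5%) and 22 of 40 in CAPS (55.0%). In both stretches raised and other CpGs lie side by side within 100 bases.

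Raised cytosines lay mostly on 1 strand of the CpG in every group of gene parts. In the 71 confined genes 308 cytosines were raised, 153 of them in coding sequence. They were chosen on their PS level, so the PS values are a description, and the CAPS and TAPSβ values were not used in the choice. Pooled over the 308, the level was 42.0% in PS (40.7 to 43.3%), 46.8% in CAPS (45.4 to 48.1%) and 66.1% in TAPSβ (64.9 to 67.2%). The cytosine opposite them had 1.72% in PS, 4.81% in CAPS and 27.2% in TAPSβ. Of the 293 with 5 or more CAPS reads, 271 had a CAPS level of 20% or more as well. Of the 302 with 5 or more PS reads on the opposite strand, 277 had no modified PS read there and 10 were raised there too. In the other exons that stood out, 443 raised cytosines had 42.7% in PS and 43.1% in CAPS. In introns that stood out, 2281 had 42.3% and 41.0%, and in parts that did not stand out 3336 had 43.5% and 39.4%.

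**Figure D3:**
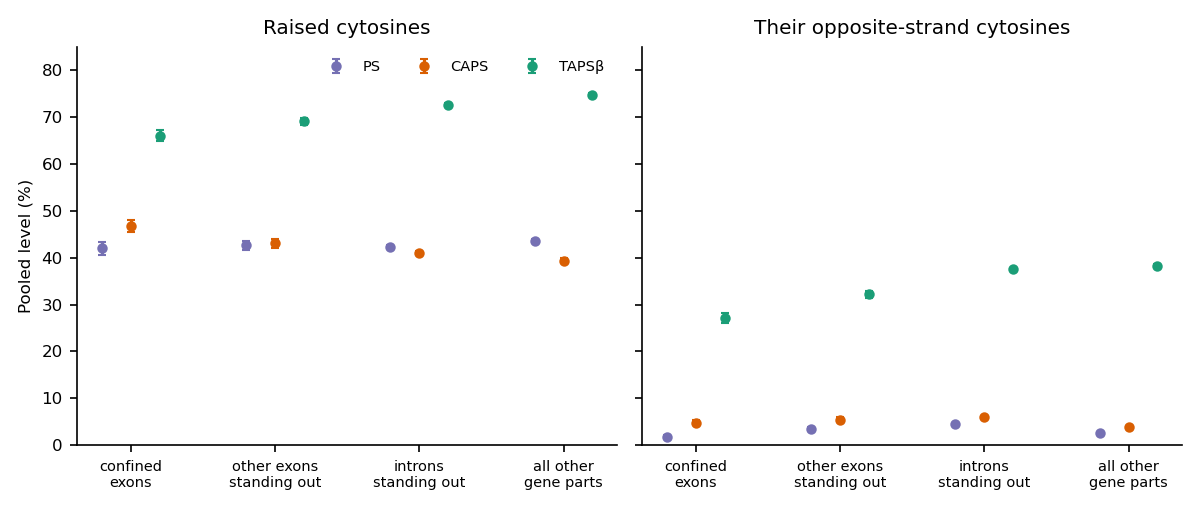
Pooled level (y axis, %) of raised cytosines (left) and of the cytosines opposite them on the other strand (right) in PS, CAPS and TAPSβ, for the 4 groups of gene parts. Bars are 95% exact binomial intervals. PS and CAPS lie between 39.4% and 46.8% at raised cytosines in every group, and at or under 5.93% on the opposite strand.

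The levels were also compared over the raised cytosines with 5 or more reads in all libraries. In confined exons 292 cytosines had 40.5% in PS and 46.8% in CAPS, a difference of 6.31 points (95% Newcombe interval 4.42 to 8.20). In the other exons the difference over 421 cytosines was 0.396 points (-1.01 to 1.80), in introns over 2014 cytosines 0.0390 points (-0.570 to 0.648), and in parts that did not stand out over 2312 cytosines -0.982 points (-1.70 to -0.268). The cytosines were chosen on a high PS level in each group, so a difference of 0 is not what equal levels would give. The groups were not tested against each other.

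PS and coverage were then followed across the exon ends. The confined genes were chosen for a high PS level in exons and a low one in introns, so a fall of PS between them is given by the choice, and only the distances are described. Over the 1146 exon-intron boundaries of confined genes, the PS level was 1.38% from 150 to 100 bp inside the exon, 1.31% from 100 to 50 bp, 0.871% in the last 50 bp, already lower within the exon, and 0.221% (0.157 to 0.302%) in the first 50 bp of the intron. It stayed between 0.213% and 0.312% up to 300 bp into the intron. At the 360455 boundaries of the other genes PS lay between 0.190% and 0.216% throughout. CAPS in confined genes went from 3.99% in the last 50 bp of the exon to 2.79% in the first 50 bp of the intron, against 3.47% and 3.24% in the other genes. Coverage of confined genes fell as well. From 150 to 100 bp inside the exon it was 11.6 reads per cytosine in PS, 10.7 in CAPS and 16.1 in TAPSβ. The other genes had 10.3, 9.06 and 13.0 there. Between the last 50 bp of the exon and the first 50 bp of the intron, confined genes went from 10.9 to 10.2 in PS. In CAPS they went from 10.4 to 9.29 and in TAPSβ from 14.8 to 14.1. The other genes went from 10.3 to 10.1, 9.34 to 9.01 and 13.1 to 13.4.

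**Figure D4:**
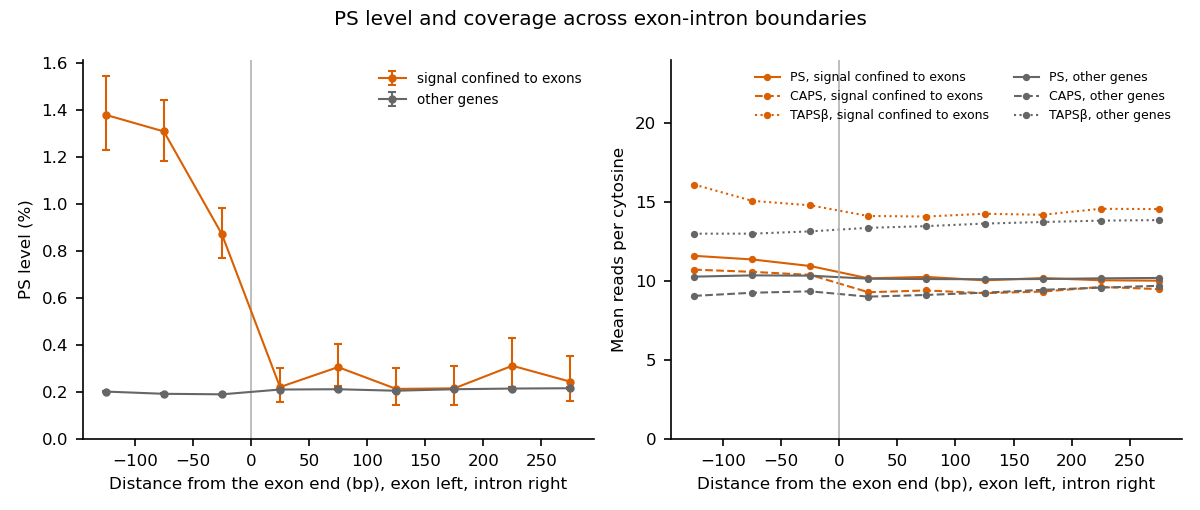
PS level (left, %) and mean reads per cytosine (right) in bins of 50 bp across exon-intron boundaries, with the distance from the exon end in bp (exon negative, intron positive). Bars are 95% exact binomial intervals. Confined genes were chosen for high exons and low introns in PS. Their level is 0.871% in the last 50 bp of the exon and 0.221% in the first 50 bp of the intron. PS coverage goes from 11.6 reads at 150 to 100 bp inside the exon to 10.9 and 10.2 reads in these bins.

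Coverage of exons and introns was compared in the confined genes. The ratio of exon to intron coverage was over 1.3 in 21 of the 71 in PS, 16 in CAPS and 14 in TAPSβ, against 1.58%, 1.66% and 1.98% of the other genes, a difference that was not tested. It was over 1.3 in all 3 libraries in 9 of the 71 and in 106 (0.651%) of the others. CAPS, which did not choose the genes, was higher in exons than in introns in 54 of the 71 (76.1%), against 41.4% of the other 16273 genes, with a median difference of 1.18 points against -0.260. TAPSβ was higher in exons in 18 of the 71 (25.4%) and in 28.1% of the others. How much of the CAPS difference between exons and introns lay on raised cytosines was not computed. Without raised cytosines the pooled PS level of confined exons was 0.464% and the CAPS level 3.58%. Exons that did not stand out had 0.195% and 3.17%.

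Matches of the coding sequences elsewhere in the reference were searched with blastn. A match of a coding sequence at another locus of NCBIM37 over at least 250 bp at 90% identity was found for 34 of the 71 confined genes (47.9%), for 62.4% of the other genes with exons standing out and for 12.7% of the rest. A match that ran across an exon junction without an intron was found for 26 of the 69 confined genes with a junction (37.7%), 16.9% of the other genes with exons standing out and 8.13% of the rest. Among genes with such a match, Cdv3 matched 9 other loci, Ppp2r5a 7, Cdc5l 3 and Smarca5, an ISWI chromatin remodeller gene, 6. Ybx1 matched 5, Prdx1 2 and Nanog 1, at 97.4% identity. Thrap3 matched 3, at up to 99.0% identity, and Kin 1, at 90.9%. The coding sequences of Phf5a, Thap1, Wars2 and Akt1s1 had no match at another locus. Only coding sequence was searched, and 153 of the 308 raised cytosines of confined genes lay in it. Copies of the untranslated exon sequence that held the others were not looked for. The 37 confined genes for which no match at another locus was found had a median PS level of 1.88%. Their median ratio of exon to intron coverage was 1.14 in PS. The 26 with a match across a junction had 1.78% and 1.09. A copy that E14 cells have and the reference lacks could not be found in this way, and its part in the signal was not tested. Nor could a copy with introns in which no single stretch of matching coding sequence reaches 250 bp. For example, no match was found for Klra5 or Klra9, members of the same gene family. Genes without a match may therefore still have related copies in the reference.

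Whether CAPS was raised by the same amount as PS was read from the difference of the levels. Over parts that did not stand out CAPS exceeded PS by 2.97 points in exons and 3.24 points in introns. The study reports a higher false-positive rate on unmodified cytosine for CAPS than for PS. The share of this in the excess was not tested. A part had the same excess when the 95% Newcombe interval of its CAPS minus PS difference held that value. Of the 244 exon parts standing out, 162 (66.4%) had the same excess, 20 (8.20%) more and 62 (25.4%) less. Among exon parts that did not stand out these shares were 54.1%, 20.7% and 25.2%. Of the 275 intron parts standing out, 114 (41.5%) had the same excess, 8 (2.91%) more and 153 (55.6%) less, against 42.1%, 26.8% and 31.0% of the other introns. The parts were chosen on a high PS level, which enters the difference with a minus sign, and the shares also depend on the reads in a part. They are a description, and nothing is read from their order.

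**Figure D5:**
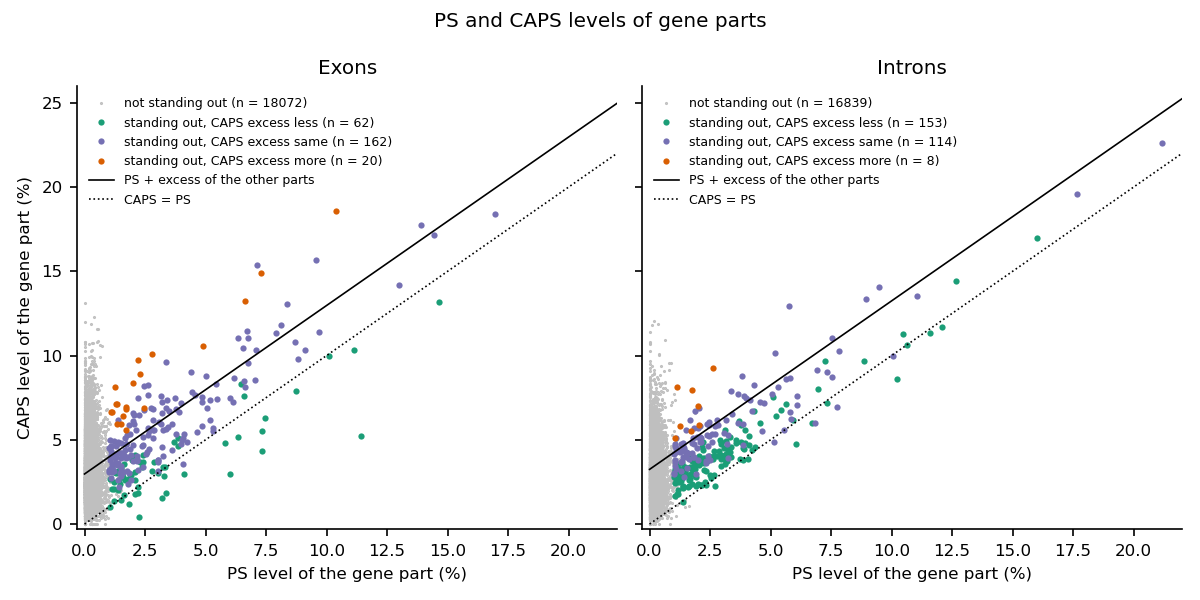
PS level (x axis, %) against CAPS level (y axis, %) of exon parts (left) and intron parts (right), 1 point per gene part. The solid line is PS plus the pooled excess of parts that did not stand out (2.97 points in exons, 3.24 in introns) and the dotted line is equality. Of the 519 parts that stood out, 276 have the same excess, 28 lie above the solid line with more and 215 below it with less.

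By a two-sided Fisher's exact test with adjusted p under 0.05, CAPS was above PS in 33555 of all gene parts (94.7%) and PS above CAPS in 2 (0.00564%). Among exon parts standing out CAPS was above PS in 128 and did not differ by this test in 114. Among intron parts it was above in 178 and did not differ in 97. Both parts with PS above CAPS stood out. Exons of Dcpp2, a salivary protein gene, had 26 of 228 modified reads in PS (11.4%) and 15 of 288 in CAPS (5.21%), a difference of -6.20 points (-11.4 to -1.45). Exons of Vmn2r89 had 29 of 484 (5.99%) and 16 of 536 (2.99%), a difference of -3.01 points (-5.74 to -0.464). All modified PS reads of both fell on raised cytosines, 3 in each. The rest of the 5 smallest differences were those of Serpina3b (7.32% in PS, 4.31% in CAPS), Gm5773 (2.25% and 0.424%) and 2610305D13Rik (7.32% and 5.53%). Each had 1 raised cytosine and an interval that held 0.

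The largest CAPS excesses among parts that stood out were found in exons. Exons of BC080695 had 7.11% in PS and 15.4% in CAPS, a difference of 8.27 points (2.77 to 13.7). Exons of Cd244 had 129 of 1240 modified PS reads (10.4%) and 18.6% in CAPS, a difference of 8.20 points (5.53 to 10.8). The interval of BC080695 still held 2.97 points and that of Cd244 lay above it. Kin followed with 7.60 points (5.28 to 9.91), Gm10155 with 7.53 points (3.72 to 11.6) and Kifc1 with 7.28 points (5.87 to 8.72). Gm10155 rests on 6 modified of 273 PS reads. Its coding sequence matched 79 other loci at up to 99.4% identity, and that of BC080695 matched 7 at up to 100%. For Cd244 no match was found. Reads may be shared between such loci, so the values of Gm10155 and BC080695 are uncertain.

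In the confined genes 39 had the same CAPS excess, 13 more and 19 less. Of exons that did not stand out, 20.7% had more and 25.2% less, so these counts are near the background. The 13 were Kin, Kifc1, Kifc5b, Thrap3, Mtrr, Arid5b, Ctdsp1, Nop2, Mcart1, Foxn2, Extl3, Dppa4 and Glyr1. Dppa4, a chromatin protein gene of pluripotent cells, had 2.31% in PS and 8.93% in CAPS in exons. Its coding sequence matched 2 other loci, at up to 99.4% identity. Without the raised cytosines the pooled PS level of these 13 was 0.416% and the CAPS level 5.36%, a difference of 4.94 points. In the 39 genes with the same excess it was 3.00 points and in the 19 with less 1.90 points. The difference itself chose these classes, so the values are a description. The share of the difference on raised cytosines varied between genes. Without them Kin went from 7.60 to 4.93 points and Kifc5b from 6.37 to 4.76. Kifc1 went only from 7.28 to 7.02 and Thrap3 from 5.13 to 4.92, and Dppa4 rose from 6.62 to 6.89. A CAPS excess of this size is found without any PS signal too, as in Tet1 exons with 5.64 points (4.99 to 6.34).

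Cytosines that were raised in PS were at times without reads in the other libraries. Of cytosines with 5 or more PS reads and 5 or more CAPS reads on the opposite strand, 0.0695% had no CAPS read where PS had no modified read. This share was 0.393% at PS levels of 20 to under 40%, 2.97% at 40 to under 60%, 13.7% at 60 to under 80% and 44.5% at 80% or more. The CAPS level of a gene part therefore leaves out positions that count in its PS level. Exons of Thap1 are an example, chosen after its values were seen. At 2 cytosines of chromosome 8, at 27273055 and 27273203, PS had 33 of 41 and 50 of 57 modified reads, and neither CAPS nor TAPSβ had a read, although the opposite strand had 48 and 42 CAPS reads. Over cytosines with at least 1 read in both libraries, the same alternative, Thap1 exons had 2.80% in PS and 7.27% in CAPS, a difference of 4.47 points (3.27 to 5.71), which is more than the 2.97 points of other exons where it was the same before. Phf5a exons had 12.5% and 17.2%, a difference of 4.67 points (1.46 to 7.90). Over all parts that stood out, the class of excess stayed as it was for 157 of 162, 18 of 20 and 56 of 62 exon parts with the same, more and less excess, and for 106, 8 and 147 of the 114, 8 and 153 intron parts.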

How the data were processed

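Genomic DNA of E14 mESCs was sequenced in 1 library per method. Per the labels and the study's methods, the authors trimmed reads with Trim Galore 0.3.1, mapped them with BWA 0.7.12 to mm9 and spike-ins, removed duplicates with Picard 2.3.0, dropped reads of low mapping quality and called bases with asTair. They deposited, for each CpG cytosine and strand, the fraction of modified reads and the count of modified and of unmodified reads, not normalized. The study left out known E14 variants in later analyses, and whether the deposited counts carry this step is not given in the sources used here. Depth per cytosine was 10 reads (median) in PS and CAPS, so levels were computed over pooled counts, with exact (Clopper-Pearson) 95% intervals.

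The one-sided exact binomial test used a rate of 0.0025, and calls were tested on simulated data. The simulated reads were drawn independently at a single level within each part, so false calls from reads that cluster on few cytosines were not covered. All 38637258 listed autosomal cytosines are CpG cytosines in NCBIM37, from which sequences and GENCODE M1 genes were taken. A read counts at every CpG it covers, so reads of a part are not independent and p-values are too small. Cytosines in overlapping genes count in each. The members, gene lists and tests were chosen with earlier results of these data known. Named genes were the 12 exon and 8 intron parts of highest PS level, the 10 confined genes with the most raised cytosines, the 3 highest of each list, 6 pluripotency and oxidation genes, and the 5 largest and 5 smallest CAPS minus PS differences. Further confined genes, the run of genes on chromosome 1 and the Gimap5 introns were chosen after their values were seen. Alternatives were the test rate, read minimum, smallest level, coverage limit, averaging, exon definition and removal of raised or top cytosines. Tools were blastn 2.17.0, scipy 1.17.1, numpy 2.4.6 and pandas 2.3.3 in Python 3.11.15, with plots from matplotlib 3.10.9. PS-c was not analysed here, and stretches of other confined genes are not reported here.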

Additional observations from a re-analysis of the deposited data

How the results depend on the processing

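No paired analysis was possible because each method has 1 library. Over the 57 named gene parts, 453 of 485 PS levels under alternatives kept their outcome in the binomial test. Of the others, 21 lost the call while staying above 0.25%, and 11 fell under 0.25%. The 453 include parts that were called in neither setting. They also include all 57 values with mean cytosine levels, which do not enter the binomial test, so that outcome was fixed. The read minimum left the counts of a part unchanged, as did the exon definition for exon parts. Only the adjustment could move these outcomes. Parts that fell under the read minimum in a setting are not counted. Leaving out the top cytosine of each part gave 132 exon parts standing out, 43 confined genes, 144 parts with the same CAPS excess and 1 part with PS above CAPS, with PS at 0.166% in exons and 0.191% in introns and CAPS at 3.18% and 3.44%, and it put Gm5773 at 0%. Leaving out cytosines with 5 or more PS reads and 20% or more in PS, whatever their modified reads, gave 34 exon parts, 66 intron parts and 2 confined genes. It gave 40, 9 and 51 parts with the same, more and less excess and 0 with PS above CAPS by Fisher's exact test. PS was at 0.193% and 0.176% and CAPS at 3.17% and 3.42%. Both leave out the cytosines that chose the parts. The second put Gm5773, Olfr209, Olfr418-ps1, Serpina3b and Vmn2r89 exons and Gm20516 introns at 0%, and Hspd1 exons at 0.172%, Zfp772 at 0.150%, Nlrp4f at 0.125% and Aebp2 at 0.0848%. A minimum of 500 reads, which takes parts with fewer reads out of the test, gave 161 exon parts and 180 with the same excess. It gave 0 with PS above CAPS and 0.220% for PS in exons. A smallest level of 0.5% gave 53 parts with more excess. A smallest level of 2% gave 148 exon parts, 165 intron parts, 28 confined genes and 172, 12 and 129 parts by excess. Without cytosines over 4 times the median coverage PS was 0.218% and 0.202% and CAPS 3.44% in introns. With 5 reads in both libraries PS was 0.220% and 0.205% and CAPS 3.22% and 3.45%. With mean cytosine levels PS was 0.211% and 0.196% and CAPS 3.23% and 3.51%. With reads in both libraries, chosen after seeing the data, PS in introns was 0.208%. Causes were not tested. Depth limits single cytosines.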

Other observations

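The introns of Gimap5, a GTPase gene of lymphocytes on chromosome 6, stood out with 423 of 5408 modified PS reads (7.82%) and 10.3% in CAPS, while its exons had 1 of 490 (0.204%). Within the introns, 44 cytosines with over 30 PS reads lie between 48700955 and 48701278 of chromosome 6 in mm9, a stretch of 324 bp. They had a mean of 105 reads per cytosine in PS and 102 in CAPS, but 10.7 in TAPSβ. Their level was 8.79% in PS (95% exact interval 7.99 to 9.65%), 9.37% in CAPS and 44.7% in TAPSβ. Over the introns the ratio of PS to TAPSβ coverage was 3.51, the highest of the 519 gene parts that stood out, of which 95% had a ratio of at most 1.03.

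The 3 confined genes without any raised cytosine were 1110021J02Rik, with 40 of 1742 modified PS reads in exons (2.296%), Ndufc2 with 14 of 726 (1.93%) and BC035947 with 16 of 1073 (1.49%). Their CAPS levels were 3.70%, 2.91% and 4.81%. They were chosen after their values were seen.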
